A study of Mus musculus with 12 samples.

Results

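The average cGAMP effect is the mean of a pair of contrasts on the log2 scale: cGAMP against IgG, and cGAMP plus anti-IL-35 against anti-IL-35 alone. It sets 6 libraries with cGAMP against 6 without, all 12 libraries of the study, and gives both antibody backgrounds equal weight. The genes of interest are those that respond alike. A gene was counted as alike when it passed the test on average and in each background in the same direction, the difference between the backgrounds did not pass, and the 95% interval of that difference lay within 1.5-fold either way. Of 14182 genes tested, 84 met this rule (59 higher and 25 lower with cGAMP). The rule reads the measured values, so the 84 genes are described here and the p-values of their averages are no independent evidence that they belong together.

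RNA was sequenced in bulk from NK cells that had been sorted on day 21 out of pancreatic tumours in wild-type mice, 3 libraries a group. The IgG group served as control, and PBS was the control injection for cGAMP. The cGAMP group had 4 intravenous doses of 10 µg, 3 days apart from day 8, the last of them 4 days before the sort. The anti-IL-35 group had 3 intraperitoneal doses of 200 µg of blocking antibody on the same schedule, the last on day 14, and the combination group had both. The labels did not name the tumour line or the sort gate, did not say whether the cGAMP mice also had IgG, and did not say whether each library is a different animal. Within each group the titles share a stem and differ only in a suffix. They may be repeats of a single sample or separate animals. The p-values therefore set each change against the scatter among these libraries. That scatter may be technical, so the p-values may be too small for a statement about mice.

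cGAMP is the second messenger that the DNA sensor cGAS makes, and it activates STING, an adaptor on the endoplasmic reticulum. STING recruits the kinases TBK1 and IKKε, which activate the transcription factors IRF3 and IRF7 and with them type I interferon and the interferon-stimulated genes. IL-35 is a suppressive cytokine made of the subunits Ebi3 and Il12a. The heat shock response is a separate programme in which the transcription factor HSF1 raises chaperones and their helpers when proteins misfold or cells are activated.

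Assigned reads ran from 12811353 to 22217766 per library, and levels are given in CPM, counts scaled to a common library size with TMM factors. Fold changes are log2 values ± SE from a single edgeR fit of all libraries, called at a Benjamini-Hochberg adjusted p under 0.05 over all genes tested. NK markers were present in every library: Ncr1, an activating receptor, stood at 341 to 452 CPM and Klrk1, which encodes NKG2D, at 471 to 620 CPM. Transcripts of other cell types were present as well and moved with the groups. Neutrophil markers (20 genes) added up to 5604 CPM in the IgG group, 12682 after cGAMP, 23667 after the antibody and 21483 after both. B cell markers (23 genes) added up to 15147, 16084, 6711 and 16288 CPM in that order. NK identity and activating receptor genes (25 genes) added up to 8817, 9738, 9331 and 8633 CPM. Sums over marker lists are not shares of cells. In bulk RNA, more cells of a type and more RNA per cell cannot be told apart.

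On average over both backgrounds, 1490 genes passed (10.5% of those tested), 1090 of them higher (7.69%) and 400 lower (2.82%). A change of 2-fold or more was reached by 61 and 46. The split depends on the scale: with library totals alone, 523 were higher and 1039 lower. Without anti-IL-35, 1834 genes passed (12.9%), 1329 higher (9.37%) and 505 lower (3.56%). With it, 829 passed (5.85%), 521 higher (3.67%) and 308 lower (2.17%). The effect differed between the backgrounds for 1475 genes (10.4%). The effect with the antibody minus that without was positive for 514 (3.62%) and negative for 961 (6.78%). This sign does not tell in which background the response was larger. The responses to cGAMP in the 2 backgrounds had little in common. Of 355 genes called in both, 161 moved the same way and 194 opposite ways. The 161 were 8.78% of the genes called without the antibody and 19.4% of those called with it. Across 14182 genes the effects in both backgrounds correlated at a Pearson r of -0.00157 and a Spearman rho of 0.00699, and 50.3% had the same sign. These backgrounds share no library, only the fit and its scaling, and genes are not independent replicates. Among the 1490 genes called on average, 637 (42.8%) had a called difference between the backgrounds, 396 had effects of opposite sign, 712 were called in 1 background with the same sign in the other, and 221 were called in neither alone. Genes that respond alike were 84, or 5.64% of the average calls (0.592% of genes tested).

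**Figure D1:**
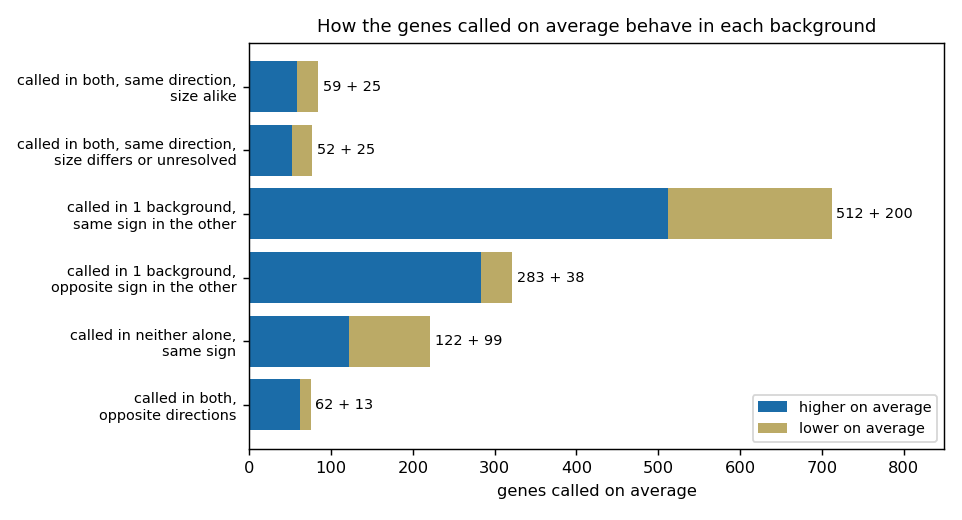
Number of genes called on average (x axis) by their behaviour in each antibody background, higher in blue and lower in tan, with both counts beside each bar. Genes called in 1 background with the same sign in the other are the largest class at 512 higher and 200 lower, and 59 and 25 were alike.

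**Figure D2:**
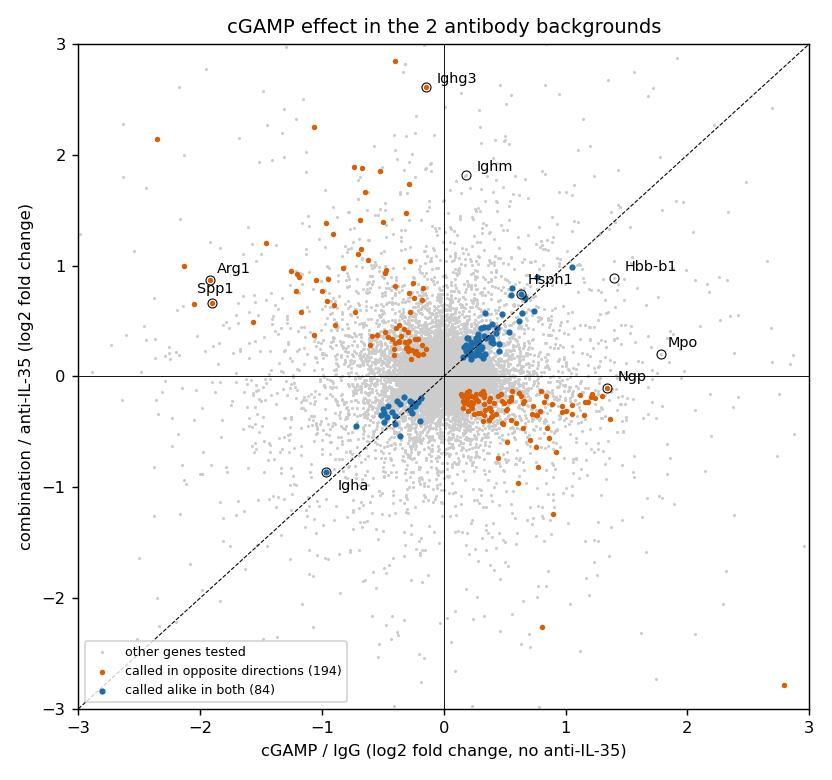
The log2 fold change with cGAMP of each gene without anti-IL-35 (x axis) against that with anti-IL-35 (y axis), the dashed line marking equal effects. The 84 alike genes (blue) lie along the line, the 194 genes called in opposite directions (orange) lie in the other quadrants, and 86 genes fall outside the axes.

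Of 113 genes that met every other condition, 84 had an interval inside 1.5-fold and 29 outside. Just inside stood Ighv1-12 and Ighv5-9, whose intervals reached 0.54 and 0.56, and just outside stood Alas2 and Ighv9-1, at 0.59 and 0.61, against a limit of 0.585. Of the 59 higher genes, 56 had no overlap between libraries with and without cGAMP in each background, as had 24 of the 25 lower genes. Over all genes tested 2.41% did so upward, 1.41% downward and 4.12% in opposite directions. The alike genes were chosen on these same libraries, which nearly fixes their count, so nothing is read from it. When the 6 libraries with cGAMP were set against the 6 without, 21 and 12 of them did not overlap (0.825% and 0.656% of all genes), a count to which the same applies. The higher genes comprised 10 of the heat shock list, 10 of a tissue macrophage list, 8 immunoglobulin V segments and 31 others. The lower genes comprised 1 V segment, 3 of a list of splicing and cold-inducible factors, and 21 others.

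Which genes count as alike rests on how the libraries are scaled. When libraries were scaled on 9 NK receptor transcripts, the median of all genes moved to -0.13 without and 0.20 with the antibody, and 4016 differences were called in place of 1475. Under that scale 54 higher and 6 lower genes were alike, and 6 of the 84 were among them: Csrnp1, Dnajb1, Igkv6-17, Kcnj10, Klrg1 and Wdfy1. Of the averages of 99 genes examined one by one, none changed sign in a called result under any scaling. Library totals alone ended the calls of Hspa1b, Ebi3, Il12rb2 and Hspa5, and NK receptor scaling those of Hspa1b, Eomes and Ebi3. The count of 84 holds for TMM and nearly so for RLE size factors, under which 81 of 84 stayed alike. Counts for gene lists under another scale stand beside those of all 14182 genes under that scale. With library totals alone 523 were higher and 1039 lower on average, and 72 were higher in both backgrounds. With NK receptor scaling these counts were 854, 189 and 103.

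Heat shock genes made up 10 of the 59 alike rises under TMM scaling, and 1 of the list was alike under NK receptor scaling. Of 21 measured genes 16 rose on average (7.69% of all genes) and the other 5 did not pass. The median was 0.27 beside 0.0155 for all genes. The list had 12 genes higher without anti-IL-35 (9.37% of all genes) and 13 with it (3.67%). Of these, 10 were higher in both, beside 111 of all 14182 genes, and all 10 were alike. The medians in the backgrounds were 0.262 without and 0.318 with the antibody. With library totals alone 14 rose on average and 6 in both backgrounds (medians 0.149 and 0.292), and with NK receptor scaling 15 and 3 (medians 0.111 and 0.515). The list as a whole stood at 5350 CPM in the IgG group (SD 6.0, n = 3), and at 6232 ± 124 CPM after cGAMP. With the antibody it stood at 6073 ± 90.6 CPM, and at 7806 ± 62.4 CPM when cGAMP was added.

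Hsph1, the HSP110 chaperone that exchanges nucleotide on HSP70 (gene 15505, chromosome 5, 149616843 to 149636498, build mm10), led them. Its 3 libraries stood at 108, 101 and 104 CPM with IgG, at 154, 171 and 161 with cGAMP, at 155, 147 and 149 after the antibody and at 242, 246 and 263 after both. Libraries with cGAMP were above those without in each background, although the cGAMP group overlapped the anti-IL-35 group. The average effect was 0.69 ± 0.04 (adjusted p = 2.07e-19), with 0.63 ± 0.06 without and 0.74 ± 0.05 with the antibody. The difference of 0.11 ± 0.08 was not called (adjusted p = 0.485). Under NK receptor scaling the average was 0.71, and the difference of 0.45 was called (adjusted p = 0.000955).

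Its co-chaperones of the DnaJ family, which hand clients to HSP70, rose too. Dnajb1 (chromosome 8, 83608175 to 83612653) had 106, 118 and 109 CPM with IgG, 171, 165 and 148 with cGAMP, 138, 139 and 140 after the antibody and 181, 191 and 178 after both. Every library with cGAMP was above every library without. The effect was 0.54 ± 0.06 without the antibody and 0.40 ± 0.06 with it, and Dnajb1 stayed alike under every scale and in each of the 12 fits that left out a library. Dnaja1 rose by 0.44 ± 0.04 on average (0.40 and 0.48 in the backgrounds). The constitutive HSP70 gene Hspa8 rose from 1778 ± 28.1 to 2160 ± 67.3 CPM without the antibody and from 2104 ± 63.4 to 2741 ± 40.7 with it.

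Under TMM scaling the HSP90 genes differed in which tests passed, and their effects were not compared directly. Hsp90aa1, the inducible form, rose by 0.33 ± 0.05 and 0.45 ± 0.05, and its difference was not called (adjusted p = 0.365). With NK receptor scaling that difference was called (0.47, adjusted p = 0.000312). There the effect of 0.18 without the antibody did not pass. Hsp90ab1, the constitutive form, stood at 1378 ± 15.9 CPM with IgG and 1442 ± 49.1 with cGAMP, a change of 0.07 ± 0.03 that was not called, and went from 1330 ± 12.7 to 1808 ± 14.3 CPM with the antibody (0.44 ± 0.03). The difference was called (0.38 ± 0.05, adjusted p = 3.3e-08). The HSP90 helpers Stip1 (0.31 ± 0.04), Ahsa1 (0.29 ± 0.05), Chordc1 (0.30 ± 0.05) and Fkbp4 (0.27 ± 0.04) rose on average and were alike. The mitochondrial chaperone Hspd1 was alike at 0.24 ± 0.04, whereas its partner Hspe1, read from the same promoter region on the other strand, gave -0.12 ± 0.08 without and 0.33 ± 0.08 with the antibody, a called difference of 0.45 ± 0.11. Bag3, a co-chaperone of HSP70, rose on average by 0.34 ± 0.08 and was called only with the antibody present (0.22 and 0.46), its difference not being called (adjusted p = 0.472).

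The stress-inducible HSP70 pair changed little. Hspa1a gave 0.08 ± 0.04 (adjusted p = 0.193) and Hspa1b 0.10 ± 0.03 (adjusted p = 0.0214). The Hspa1b call was lost when any of 6 single libraries was left out, with the adjusted p at 0.167 without replicate 1 of the anti-IL-35 group. These copies are nearly identical, so the reads of each are uncertain. Hsf1 itself gave -0.06 ± 0.08 (adjusted p = 0.706).

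**Figure D3:**
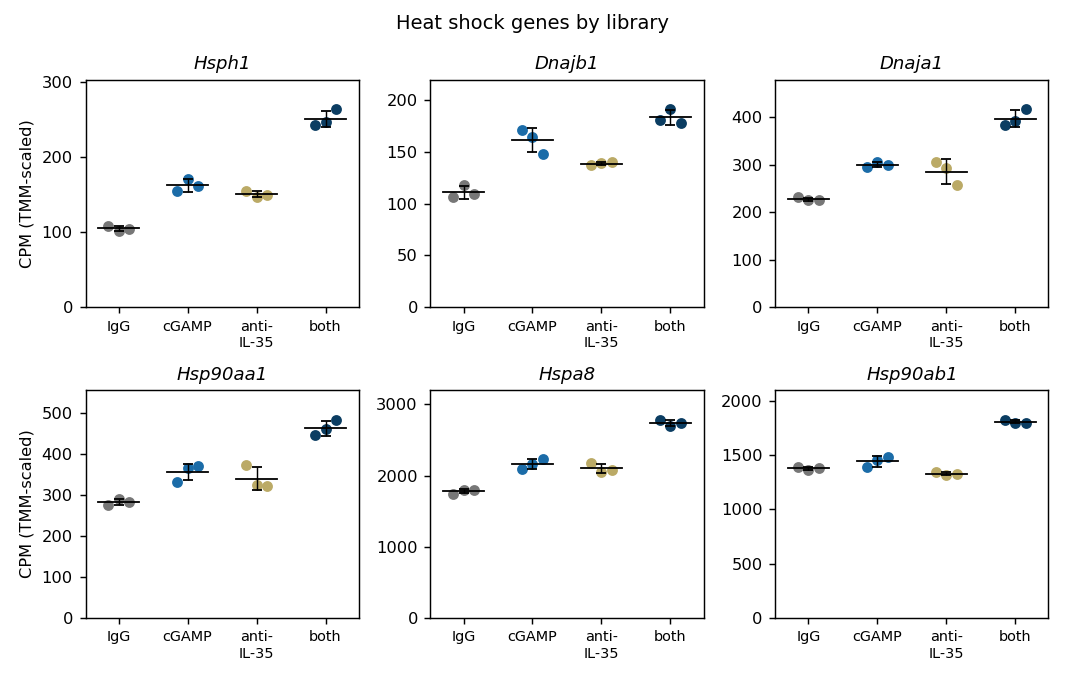
Level in each library (y axis, TMM-scaled CPM) of 6 heat shock genes in the 4 groups (x axis, 3 libraries each), with the mean as a line and the SD as error bar. Hsph1, Dnajb1, Dnaja1, Hsp90aa1 and Hspa8 are higher with cGAMP in both backgrounds, and Hsp90ab1 stands apart in the combination group, at 1808 CPM.

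The promoters of these genes were searched for the heat shock element, the binding motif of HSF1, as GAA, TTC and GAA with NN between them, on both strands, from 250 bases before to 50 after the gene start (RefSeq sequences, build GRCm38.p6, which is mm10). It was found in 4 of 17 heat shock genes with a sequence (23.5%) and in 59 of 10662 genes tested (0.553%). Of the 8 alike heat shock genes with a sequence, 3 held it (37.5%): Hsph1, Chordc1 and Hspd1. The same 3 are among the 5 of 35 alike higher genes that held it (14.3%), with Mga and Slco2b1. The matching stretches of the alike heat shock genes are shown because they belong to the group that moved together; capitals mark the motif, overlapping copies run together, and each is read along the gene's strand.
Hsph1, chr5:149636280-149636308, minus strand: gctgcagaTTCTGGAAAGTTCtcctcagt
Chordc1, chr9:18292260-18292288, plus strand: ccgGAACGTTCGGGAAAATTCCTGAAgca
Hspd1, chr1:55088039-55088096, minus strand: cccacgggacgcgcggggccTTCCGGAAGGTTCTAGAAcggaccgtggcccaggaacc
The Chordc1 stretch holds 3 overlapping copies and the Hspd1 stretch 2. The Hspd1 stretch also lies in the promoter of Hspe1, whose response differed between the backgrounds. The motif is a description of these letters and was not tested as a site.

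Part of a list of tissue macrophage genes rose alike as well under TMM scaling. The list of 19 measured genes, known from splenic red pulp and other resident macrophages, was drawn up after values were seen and is given as a description only. On average 16 rose (7.69% of all genes), and 10 were alike (0.416% of all genes were alike and higher), with a median of 0.27. Library totals alone gave 13 higher and 7 in both backgrounds, and NK receptor scaling 16 and 3. Vcam1, an adhesion molecule for integrin α4 that red pulp macrophages carry (chromosome 3, 116110020 to 116129688), stood at 471, 465 and 477 CPM with IgG and at 584, 598 and 631 with cGAMP. With anti-IL-35 it stood at 361, 348 and 314 CPM, and with the combination at 441, 470 and 479. Each cGAMP group was above its own control, both groups with the antibody were below their counterparts without it, and the combination overlapped IgG. The average was 0.40 ± 0.03 (adjusted p = 7.36e-14). The mannose receptor Mrc1 (0.37 ± 0.04), the receptor tyrosine kinase Axl (0.28 ± 0.03), which binds apoptotic cells through Gas6, the organic anion carrier Slco2b1 (0.41 ± 0.07), the potassium channel Kcnj10 (0.35 ± 0.05), the neurturin receptor Gfra2 (0.45 ± 0.07), the adhesion molecule Cadm1 (0.37 ± 0.07) and the integrin Itgad (0.25 ± 0.04) followed, and Hpgd and Trf, the transferrin gene, completed the 10. Slc40a1, the iron exporter ferroportin, rose from 531 ± 9.08 to 743 ± 17.7 CPM without the antibody and stood at 626 ± 28.1 and 635 ± 14.8 CPM with it. The difference of -0.46 ± 0.06 was called under TMM, but under NK receptor scaling it was not, and Slc40a1 was alike there. Hmox1 was called without the antibody only (0.27 and -0.02), with a called difference of -0.29 ± 0.06 under TMM. Spic and Cd163 were called without the antibody but not with it, and Cd5l with it but not without. Adgre1 was called in neither background alone. Treml4, Timd4 and Mertk did not pass on average.

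The broader macrophage and monocyte list behaved otherwise. On average 10 of 22 genes rose and 4 fell (7.69% and 2.82% of all genes). Library totals alone turned this balance to 3 and 5, and NK receptor scaling left it at 6 and 4. Mrc1, which both lists hold, was the 1 alike gene under TMM. The sum over this list was 7131 ± 55.5 CPM in the IgG group and 7156 ± 56.7 after cGAMP, against 7123 ± 25.4 after the antibody and 8064 ± 40.7 after both. The lysosomal protease Ctsb, abundant in macrophages, was the alike gene with the smallest average, 0.17 ± 0.02. Whether the higher macrophage genes came from more such cells in the sort was not tested.

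Other genes that rose alike are known from several cell types, and which cells they came from was not measured in this bulk RNA. Klrg1, an inhibitory receptor of mature NK cells, stood at 74.9, 77.8 and 69.6 CPM with IgG, 94.3, 107 and 102 with cGAMP, 80.8, 76.5 and 67.5 after the antibody and 92.8, 90.2 and 93.1 after both. The libraries with and without cGAMP did not overlap. Its average was 0.37 ± 0.05 (adjusted p = 2e-07), and it stayed alike under NK receptor scaling. Cx3cr1, the fractalkine receptor of mature NK cells and of monocytes, rose by 0.27 ± 0.04. Ccr3, the eotaxin receptor of eosinophils and basophils, rose by 0.37 ± 0.06. In the mast cell, basophil and eosinophil list 7 of 16 genes rose on average (7.69% of all genes). There the eosinophil granule gene Prg2 gave 0.33 ± 0.08 and was called in neither background alone, while Epx, eosinophil peroxidase, rose only with the antibody (0.08 and 1.31) and Hdc, the histamine-making enzyme, only without it (1.09 and 0.07), both differences being called. The formin Fmnl2 (0.52 ± 0.08), the semaphorin Sema6d (0.44 ± 0.07), the integrin chain Itgb3 (0.35 ± 0.08), the autophagy adaptor Wdfy3 (0.35 ± 0.05) and Csrnp1 (0.34 ± 0.05), a nuclear protein of the immediate-early class, also rose alike. Of these, Itgb3 stayed alike in only 2 of the 12 fits that left out a library, and the others in 8 to 12. The 31 genes outside the heat shock, tissue macrophage and V segment groups ran from 0.17 to 0.52 on average.

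Igha, the constant region of IgA (gene 238447, chromosome 12, 113256204 to 113260236), was the largest fall among the alike genes. It stood at 2272, 2303 and 2397 CPM with IgG and at 1198, 1216 and 1162 with cGAMP, and at 2940, 3068 and 2948 CPM after the antibody and 1617, 1664 and 1654 after both. All 6 libraries with cGAMP were below all 6 without. The average was -0.91 ± 0.02 (adjusted p = 8.86e-33), with -0.96 and -0.86 in the backgrounds. The difference of 0.10 ± 0.05 was not called, but was called with library totals alone (0.19, adjusted p = 0.00361) and with NK receptor scaling (0.45, adjusted p = 0.000349). Of 12 antibody constant region genes tested, Igha was the 1 called lower on average (2.82% of all genes). Ighg1 rose in both backgrounds by different amounts (0.36 and 0.85). Ighm, which encodes the IgM heavy chain, rose by 0.18 ± 0.03 and 1.82 ± 0.03, and Ighg3 fell by 0.15 without and rose by 2.61 with the antibody, each with a called difference.

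V segments, the variable exons of antibody genes, moved in many directions. Of 193 tested, 105 were higher and 32 lower on average (7.69% and 2.82% of all genes). In both backgrounds 47 were called the same way and 49 opposite ways, beside 161 and 194 of all 14182 genes. A difference was called for 131 (10.4% of all genes), and 8 higher and 1 lower were alike (0.416% and 0.176% of all genes). Igkv9-124 was the largest alike rise of all genes, from 30.7 ± 0.893 to 63.7 ± 5.28 CPM without the antibody and from 33.7 ± 5.68 to 66.8 ± 2.04 with it. Igkv15-103 rose by 0.76 and 0.90. Because V segments share much of their sequence, reads may be assigned to the wrong one.

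Interferon-stimulated genes had more falls than rises on average. Of 52 interferon-stimulated genes tested, 1 rose and 11 fell on average (7.69% and 2.82% of all genes), with a median of -0.11. Library totals alone gave 24 lower and NK receptor scaling 5, beside 1039 and 189 of all 14182 genes. Under the latter scale the list median with the antibody turned from -0.09 to 0.10. Irf7, which the STING list holds too, and Slfn5 were the alike members. Irf7, the transcription factor that amplifies interferon (chromosome 7, 141263183 to 141266499), stood at 72.6, 79.0 and 73.1 CPM with IgG and at 57.7, 51.7 and 53.5 with cGAMP. It stood at 90.9, 89.3 and 92.5 CPM after the antibody and at 77.2, 73.2 and 61.5 after both. Each cGAMP group was below its own control, while the combination overlapped IgG. The average was -0.42 ± 0.05 (adjusted p = 1.06e-07). Slfn5, an interferon-induced regulator of the Schlafen family, gave -0.30 ± 0.04. Ifit3, an antiviral RNA-binding protein, fell in both backgrounds by 0.48 and 0.87, a difference whose size the data did not resolve (adjusted p = 0.305). Eif2ak2, the RNA-sensing kinase PKR, fell by 0.25 on average. Oasl2 moved in opposite directions, 0.42 ± 0.06 without and -0.34 ± 0.05 with the antibody, and Isg15 gave -0.09 ± 0.10 on average (adjusted p = 0.676). With NK receptor scaling the effects of Irf7 and Slfn5 with the antibody were -0.17 and -0.02, and neither was called.

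In the STING list of 17 genes, 1 rose and 3 fell on average, beside the same shares of all genes. Library totals alone gave 6 lower, beside 1039 of all 14182 genes. Ikbke, the kinase IKKε, fell from 50.5 ± 3.0 to 35.9 ± 1.41 CPM without the antibody and from 50.6 ± 4.44 to 40.2 ± 4.97 with it. Its average was -0.41 ± 0.07 (adjusted p = 1.03e-05), and its 6 libraries with cGAMP were below the 6 without. With NK receptor scaling its effect with the antibody was -0.14 and was not called (adjusted p = 0.373). The difference of 0.51 was called there (adjusted p = 0.0145). Ifi204, a DNA sensor, fell without the antibody only (-0.52 and -0.06, called difference 0.46 ± 0.13). Tmem173, which encodes STING, gave -0.03 ± 0.05 (adjusted p = 0.828) and Cgas -0.19 ± 0.09 (adjusted p = 0.189). Ifnb1, interferon beta, had 0 counts in all libraries and was not tested. The interferon-stimulated response element, searched as a pair of GAAA with NN between them over the same promoter windows, was in 20 of 36 interferon-stimulated genes (55.6%) and in 417 of 10662 genes tested (3.91%). Of 18 alike lower genes with a promoter sequence it was in 1, that of Slfn5, shown as the match that goes with an alike fall.
Slfn5, chr11:82951927-82951976, plus strand: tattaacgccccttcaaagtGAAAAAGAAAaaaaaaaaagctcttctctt

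The alike falls included genes of RNA processing, grouped here after values were seen, while Sfpq, another splicing factor, was an alike rise. Srsf5, a serine-arginine splicing factor, stood at 148, 162 and 154 CPM with IgG, 109, 115 and 121 with cGAMP, 136, 137 and 125 after the antibody and 102, 110 and 108 after both. No library with cGAMP reached one without. The average was -0.37 ± 0.04 (adjusted p = 2.37e-09). Srsf2 (-0.26 ± 0.04), the RNA-binding proteins Hnrnpdl (-0.36 ± 0.05) and Cirbp (-0.43 ± 0.07), a cold-inducible gene, the mRNA export factor Nxf1 (-0.31 ± 0.05) and Leng8 (-0.39 ± 0.04) fell as well. So did the nuclear long non-coding RNAs Malat1 (-0.30 ± 0.04) and Neat1 (-0.19 ± 0.04). A list of splicing factors of this family, their CLK kinases and cold-inducible proteins, drawn up after values were seen, had 6 of 17 genes lower on average (2.82% of all genes). It had 12 lower with library totals alone and 3 with NK receptor scaling, beside 1039 and 189 of all 14182 genes. Srsf1, Srsf3, Srsf4, Srsf9, Srsf10 and Srsf11 did not pass. Its median was -0.14, and its median with the antibody turned from -0.07 to 0.12 under NK receptor scaling. The metalloprotease Adamts10 (-0.58 ± 0.06), the endosomal adaptor Wdfy1 (-0.45 ± 0.07), the ubiquitin ligase Herc3 (-0.42 ± 0.08), Phf1 (-0.38 ± 0.05), a Polycomb-associated protein, and the AP-1 subunit Jun (-0.29 ± 0.04) completed the larger falls. With NK receptor scaling the effects of Srsf5, Cirbp and Jun with the antibody were -0.12, -0.15 and -0.13, none of them called. Baiap3, Lime1, Rgl2, Acap1, Arhgap4 and Dennd1c were among the remaining lower genes, with the V segment Ighv1-75.

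**Figure D4:**
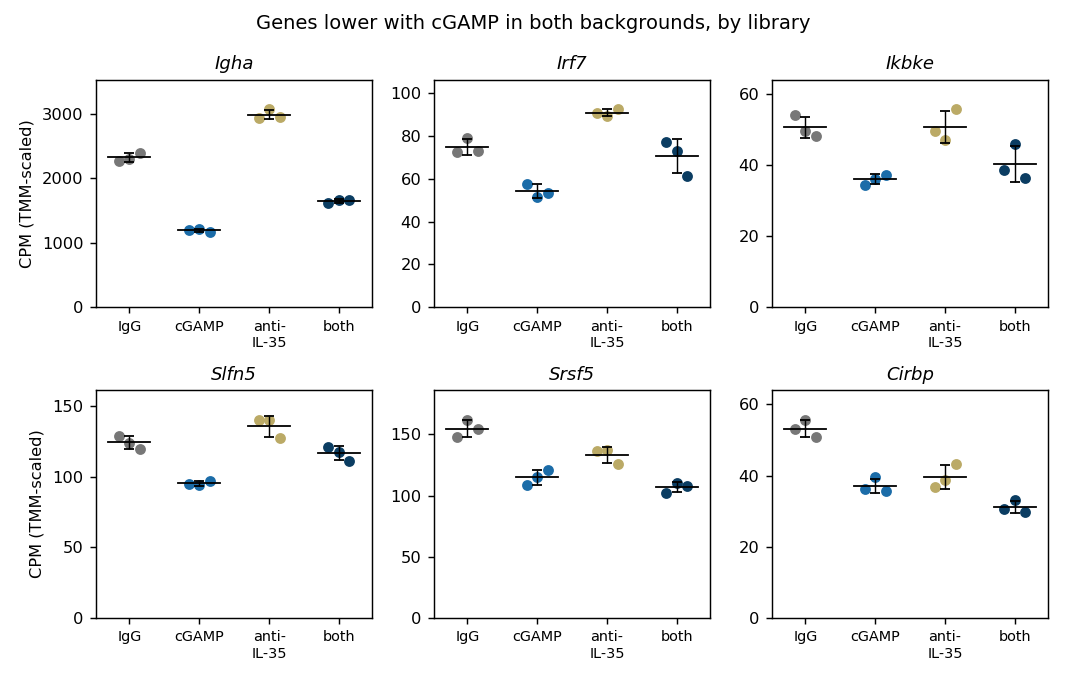
Level in each library (y axis, TMM-scaled CPM) of 6 genes that fell with cGAMP in both backgrounds, by group (x axis, 3 libraries each), with mean and SD. Igha shows the largest separation, with 1192 against 2324 CPM and 1645 against 2985 CPM. With NK receptor scaling Igha was called lower with the antibody and the other genes shown were not.

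Red cell transcripts had the largest median of all lists on average, and globin genes rose in both backgrounds by different amounts. Of 13 erythroid and platelet genes 6 rose on average (7.69% of all genes), with a median of 0.77, and 5 rose in both, beside 111 of all 14182 genes. The alpha globin gene Hba-a1 rose from 167 ± 5.19 to 402 ± 18.1 CPM without and from 213 ± 7.12 to 365 ± 9.14 with the antibody. The libraries with and without cGAMP did not overlap. Hba-a2 and Hbb-b1, a beta globin, averaged 1.09 ± 0.03 and 1.14 ± 0.04. Their differences were called (-0.48 ± 0.07, -0.43 ± 0.06 and -0.51 ± 0.08 for Hba-a1, Hba-a2 and Hbb-b1), the rise being larger without the antibody. With NK receptor scaling none of these differences was called (adjusted p = 0.295, 0.533 and 0.259). Globin copies are nearly identical, which makes the reads of each uncertain. Alas2, the first enzyme of haem synthesis in red cells, rose by 1.12 ± 0.17 and 1.01 ± 0.17, and Slc4a1, the red cell anion exchanger, by 0.88 and 1.21.

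Mitochondrially encoded genes rose too, 12 of 13 on average, 12 without and 6 with the antibody (7.69%, 9.37% and 3.67% of all genes). A difference was called for 7 (10.4% of all genes). Together the 13 took 5.97 ± 0.103% of counts with IgG, 8.00 ± 0.452% with cGAMP, 5.71 ± 0.387% after the antibody and 6.28 ± 0.367% after both. COX1, a subunit of cytochrome oxidase, rose by 0.56 ± 0.04 and 0.15 ± 0.04, and ND1, a subunit of complex I, by 0.46 and 0.14. With NK receptor scaling 12 mitochondrial and 3 erythroid genes were alike. The mitochondrial share can move with RNA quality and cell type, and its part in the result was not tested.

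For several cell types the average joins unlike effects. All 20 neutrophil genes rose on average (7.69% of all genes). Their median of 0.54 joins 1.22 without and -0.11 with the antibody, the latter turning to 0.0879 under NK receptor scaling. All 20 had a called difference under TMM (10.4% of all genes). Under TMM, Ngp, a granule protein, gave 1.34 ± 0.03 and -0.11 ± 0.03, and Ltf, lactoferrin, was also called in opposite directions. Mpo, myeloperoxidase, gave 1.78 and 0.20. B cell genes rose in 17 of 23 on average, with 1 higher without and 22 with the antibody (7.69%, 9.37% and 3.67% of all genes). Of 10 MHC class II genes 7 were called lower without and higher with the antibody, beside 194 of all 14182 genes called in opposite directions. Among the 7 was Cd74, the invariant chain (-0.23 and 0.34). The averages of 2 of the 10 were called (10.5% of all genes), and with library totals alone 3, all lower. Arginase Arg1 gave -1.92 ± 0.12 and 0.87 ± 0.11, osteopontin Spp1 -1.90 ± 0.19 and 0.66 ± 0.18, and the chemokine Cxcl10 -1.21 ± 0.25 and 0.77 ± 0.24, all with called differences. Chaperones of the endoplasmic reticulum rose in 10 of 22 on average (7.69% of all genes), and with the antibody 14 were called higher (3.67%). Of the 22, 7 had a called difference (10.4% of all genes). The average count fell to 1 with library totals alone and to 6 with NK receptor scaling. Pdia4, a disulfide isomerase, gave -0.001 and 0.45, and Hspa5, its HSP70, 0.10 and 0.18 (average 0.14, adjusted p = 0.0781 with library totals alone). Acinar and epithelial transcripts fell in 4 of 17 on average (2.82% of all genes). The amylase Amy2a5 went from 10.0 ± 1.62 to 2.53 ± 0.0945 CPM without the antibody and from 4.11 ± 0.608 to 2.24 ± 0.570 CPM with it. Cela2a, a pancreatic elastase, stood at 2.38 ± 0.780, 0.296 ± 0.315, 1.45 ± 0.834 and 0.413 ± 0.526 CPM in the 4 groups. Its levels with cGAMP were near the floor, with SDs above the means. It may have passed the count filter only through the groups without cGAMP, so it is given as a description only. Amylase copies are nearly identical, which makes the level of Amy2a5 uncertain.

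**Figure D5:**
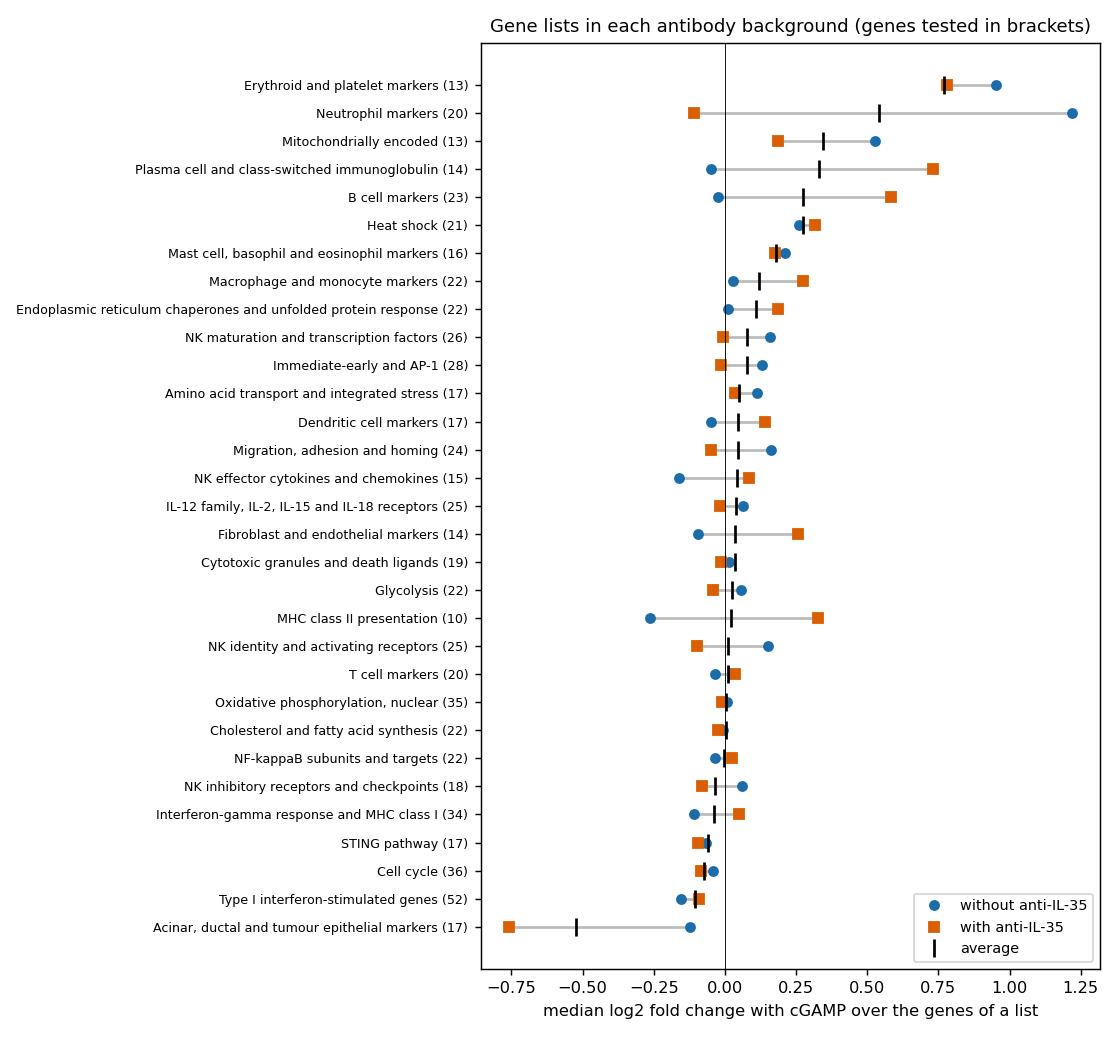
Median log2 fold change with cGAMP (x axis) of each gene list (y axis, genes tested in brackets) without anti-IL-35 (circles), with it (squares) and on average (bars). Under the TMM scaling shown, the heat shock markers lie at 0.262 and 0.318 (0.111 and 0.515 with NK receptor scaling), while those of neutrophil genes lie at 1.22 and -0.11.

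The NK genes themselves had small averages. Of 25 NK identity and activating receptor genes, 2 rose and 1 fell on average (median 0.01), near the shares of all genes (7.69% and 2.82%). Without the antibody 13 rose (9.37% of all genes), with it 10 fell (2.17%), and 17 had a called difference (10.4% of all genes). The list medians were 0.151 without and -0.0973 with the antibody under TMM, and 0.000927 and 0.106 with NK receptor scaling. That scale is itself set on NK receptor transcripts, so nothing is read from the latter medians. Library totals alone gave 7 lower on average, beside 1039 of all 14182 genes. Klrk1 gave 0.15 ± 0.05 and -0.22 ± 0.05, and Ncr1 0.03 and -0.15, with averages that were not called under TMM and were called lower with library totals alone (-0.10 and -0.13). Of 19 cytotoxic genes 3 rose and 2 fell on average (7.69% and 2.82% of all genes). Library totals alone gave 5 lower and NK receptor scaling 2 higher, beside 1039 and 854 of all 14182 genes. Perforin (Prf1, 639 ± 2.12, 728 ± 16.3, 698 ± 32.8 and 676 ± 14.4 CPM in the 4 groups) averaged 0.07 ± 0.03 (adjusted p = 0.103, and 0.0332 without replicate 3 of the anti-IL-35 group). Granzyme B (Gzmb) averaged -0.01 ± 0.03, Ifng -0.13 ± 0.09, the transcription factor Tbx21 0.06 ± 0.04 and the proliferation gene Mki67 -0.03 ± 0.04, none of them called. The chemokine gene Ccl5 rose without the antibody (0.30 and 0.05, called difference -0.25 ± 0.05), and Ccl3 fell by 0.34 ± 0.07 on average. Il12rb2, an IL-12 receptor chain, averaged 0.21 ± 0.05 (adjusted p = 0.00186, and 0.0507 with library totals alone). Eomes, a transcription factor of NK development, averaged -0.11 ± 0.04 (adjusted p = 0.0471) from 0.15 and -0.36, a call that ended in 9 of 12 fits that left out a library, with adjusted p up to 0.163 without replicate 3 of the cGAMP group.

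Of the IL-35 subunits, Ebi3 averaged 0.33 ± 0.11 (adjusted p = 0.0397). It stood at 9.39 ± 1.70 CPM in the IgG group and 16.5 ± 3.15 after cGAMP, and at 21.6 ± 2.46 after the antibody and 19.4 ± 1.85 after both, and the difference was called (-0.97 ± 0.22). The average call ended in 8 of 12 fits that left out a library, with adjusted p up to 0.171 without replicate 2 of the IgG group. Il12a was scarce, at 2.41 ± 0.333, 1.22 ± 0.227, 0.535 ± 0.296 and 1.76 ± 0.483 CPM, with effects of -0.98 ± 0.54 and 1.68 ± 0.57 that were not called and a difference that was (2.66 ± 0.78, adjusted p = 0.0175). Among immediate-early genes, 8 of 28 rose and 2 fell on average (7.69% and 2.82% of all genes), and 6 and 4 with library totals alone. Fosl2 rose in both backgrounds by different amounts under TMM (0.78 and 0.21), but was alike under NK receptor scaling. Dusp1, a phosphatase of MAP kinases, rose without the antibody and did not pass with it (1.02 and -0.09).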

How the data were processed

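The authors deposited raw read counts per gene. The submitters' processing notes name build mm10 and the tools featureCounts, STAR 2.7.7a and SAMtools 1.15. For the featureCounts version, annotation, strand setting and multi-mapping reads, the setting is not given in the sources used here. Libraries were made with NEBNext Ultra kits, per the labels. The table held 27179 Entrez IDs, 1049 of them without a symbol (0.251% of counts, kept under their ID), and RefSeq gave coordinates for 25275.

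The fit used edgeR 4.0.16 under R 4.3.3: filterByExpr with a minimum count of 10, TMM, and a robust quasi-likelihood fit of 4 group means (8 residual degrees of freedom, common biological coefficient of variation 0.0958). All adjusted p-values come from its tests with Benjamini-Hochberg adjustment over all genes. Within groups, pairs of libraries had chi-squares of 3.26 to 11.8 per degree of freedom, above sampling noise, so none was taken for a library deposited again. This does not show that they are separate animals. The fit was also run on simulated counts with effects set equal in both backgrounds. Such counts cannot show how the alike rule acts where effects differ, and nothing is read from them.

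The alike genes and the 31 lists of 698 genes, were chosen with earlier results of these data known, and 2 further lists after values were seen. Genes were named by a rule: among alike genes with at least 5 CPM in a group and no overlap in either background, the 12 largest averages in each direction (immunoglobulin segments, ribosomal, mitochondrial and clone-numbered genes passed over), up to 4 genes per list by smallest p, a fixed set, and the 5 largest opposite responses in each direction. Other names were chosen after values were seen. Alternatives were RLE size factors, library totals alone, scaling on 9 NK receptor transcripts, no filter, a filter of 1 CPM in 6 libraries, DESeq2 1.42.0, an additive model, each background fitted alone, a replicate block, removal of immunoglobulin and other-cell genes, a narrower and a wider interval (2-fold) for the difference, and leaving out each library.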

Additional observations from a re-analysis of the deposited data

Results flagged for a closer look

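For these results the cGAMP effect differed between the antibody backgrounds by the test of the difference itself (the effect with anti-IL-35 minus that without, log2, edgeR adjusted p under 0.05). A positive difference is a higher value with the antibody and need not be a larger response. It was positive for the chaperone genes Hsp90ab1 (0.376), Hspe1 (0.454) and Pdia4 (0.453), and for the antibody genes Ighm (1.64), Ighg1 (0.494) and Ighg3 (2.76). It was also positive for Cd74 (0.573), Arg1 (2.79), Spp1 (2.56), Cxcl10 (1.98), Epx (1.23), the DNA sensor Ifi204 (0.459) and the IL-35 subunit Il12a (2.66).

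In the other direction, neutrophil and mast cell genes differed by -1.44 (Ngp), -1.47 (Ltf), -1.58 (Mpo) and -1.02 (Hdc), and red cell genes by -0.484 (Hba-a1), -0.431 (Hba-a2) and -0.509 (Hbb-b1). Mitochondrial genes differed by -0.403 (COX1) and -0.318 (ND1), and the iron exporter Slc40a1 by -0.464. NK and signalling genes differed by -0.235 (Prf1), -0.187 (Ncr1), -0.375 (Klrk1), -0.507 (Eomes), -0.251 (Ccl5), -0.974 (Ebi3), -0.572 (Fosl2), -1.12 (Dusp1) and -0.761 (Oasl2). Under NK receptor scaling Hba-a1, Hba-a2, Hbb-b1, COX1, ND1, Slc40a1 and Fosl2 were alike, so their differences were not called there. Groups of 3 libraries were not searched for single outlying libraries.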

How the results depend on the processing

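Counts of calls moved with the model and with the scale. Library totals alone gave 523 genes higher and 1039 lower on average (33.5% higher, against 73.2%) and 30 and 66 alike, and moved the median of all genes to -0.09 without and -0.03 with the antibody. NK receptor scaling gave 854 higher and 189 lower on average (81.9% higher), 6 alike lower, 3022 genes called with anti-IL-35 and 4016 differences. Without immunoglobulin and other-cell genes (260 and 185 removed), 652 were higher on average and 528 were called with anti-IL-35. An additive model, which puts the difference between backgrounds into the spread, gave 306 higher and 146 lower, 14 heat shock genes among them. No filter gave 42 alike lower genes, and the narrower interval for the difference 14. Leaving out each library gave 837 to 1217 higher and 305 to 476 lower on average, 1375 to 2110 called without and 627 to 865 with anti-IL-35, 1216 to 1489 differences, 43 to 78 alike higher and 18 to 39 alike lower (39 without replicate 1 of the anti-IL-35 group), and 15 to 16 heat shock genes; 25 of the 84 alike genes stayed alike in all 12.

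Replicate numbers did not pair the libraries (r of -0.0247 to 0.038 over 18 same-numbered pairs). The replicate block gave 998 higher and 367 lower on average, 1723 and 755 called in the backgrounds, 1386 differences, 53 and 25 alike and 16 heat shock genes, and of 99 genes it ended the call of Eomes alone (adjusted p = 0.0705). None of the 99 averages reversed. The additive model ended 15 of their calls, among them those of the neutrophil genes, Arg1 and Spp1.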
